A study of Mus musculus with 32 samples.

Results

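The cytosolic ribosomal proteins were taken as every gene whose symbol in the array annotation begins with Rps, Rpl or Rplp and a number, or is Rpsa, with only a closing a, x, y or l allowed. The rule used names and no measured value. It found 76 genes of the 23339 measured in all, 27 of the small subunit and 49 of the large subunit. Of these, 55 were measured on both array types, 9 only at 48 h and 12 only at 72 h. At 48 h there were 64 of 22180 genes, and at 72 h 67 of 17097.

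The arrays held CD4+ helper T cells of DO11.10 mice on the Balb/c background, whose transgenic receptor recognizes a peptide of ovalbumin (OVA), here called antigen. The lymph node T cells were cultured on peritoneal macrophages elicited with thioglycollate, and living single CD4+ cells were then sorted. The 48 h samples were run on MoGene-2_0-st arrays. Stimulated cells had 3 arrays in each of 5 settings: full medium, full medium with macrophages that had been exposed to both IL-4 and IL-10 (each at 10 ng/mL) and washed, and medium whose arginine, leucine or lysine was cut to 1%. Unstimulated cells were measured only in those 3 amino-acid-poor media, with 2 arrays for arginine, 3 for leucine and 3 for lysine. The 72 h samples were run on HT_MG-430_PM arrays, with 3 for unstimulated cells, 3 for stimulated cells and 3 for stimulated cells on cytokine-pretreated macrophages. No 48 h array of full medium without antigen was analysed here. All mice carried the receptor transgene, and all cultures held macrophages. Cd3e, a chain of the T cell receptor complex, had group means of 11.46 to 11.87 at 48 h and 8.87 to 9.33 at 72 h on the log2 scale. A wider list of 14 T cell identity genes was less even at 72 h. It averaged 9.24 without antigen, 10.19 with it and 10.47 with it on pretreated macrophages. The labels do not say whether replicates were separate animals or cultures, so p-values measure only the spread between these arrays.

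The cytosolic ribosome has a small subunit, which reads the messenger RNA, and a large subunit, which joins amino acids. Messages for ribosomal proteins typically start with a run of pyrimidines, the 5′ terminal oligopyrimidine (TOP) motif, through which mTORC1 and LARP1 adjust their translation when nutrients or growth signals change. That control acts mainly on how often the message is read, which arrays do not measure. T cells build ribosomes as they leave quiescence after antigen.

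Start-site windows from RefSeq (GRCm38.p6) were matched for 60 of the 76 genes. An unbroken run of at least 8 C or T that touched the 10 bases on either side of an annotated start was found in 28 of the 60 (46.7%), against 15.8% of all 27025 genes in the table and 9 of 69 mitochondrial ribosomal protein genes. The letters CTTCCG, which hold the GGAA core of ETS-family sites on the other strand, were searched on both strands of the 300 bases and can overlap such a run. They lay in the windows of 68.3% of the ribosomal protein genes, 56.5% of the mitochondrial ones and 18.8% of all genes. The windows below run from 10 bases before to 20 bases from the start, with the longest pyrimidine run near the start in capitals. The first 5 are genes with a long run, and all but Rps6 of these rose with antigen in each low medium.
Rpl7a (chr2:26910797-26910826, plus strand): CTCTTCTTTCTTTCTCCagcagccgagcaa
Rpl35 (chr2:39005112-39005141, minus strand): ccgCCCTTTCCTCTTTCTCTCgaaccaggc
Rpl15 (chr14:18270967-18270996, minus strand): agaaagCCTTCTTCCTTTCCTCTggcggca
Rpl28 (chr7:4792955-4792984, plus strand): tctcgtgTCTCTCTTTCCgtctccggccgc
Rps6 (chr4:86857348-86857377, minus strand): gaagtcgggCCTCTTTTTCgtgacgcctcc
The next 4 are genes with large or opposing changes, of which only Rps26 has a run of at least 8 that lies within the window.
Rps26 (chr10:128626487-128626516, minus strand): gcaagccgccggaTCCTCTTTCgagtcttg
Rplp0 (chr5:115559457-115559486, plus strand): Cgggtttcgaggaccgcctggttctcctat
Rpl37a (chr1:72711250-72711279, plus strand): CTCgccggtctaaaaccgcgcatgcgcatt
Rpl39l (chr16:10170218-10170247, plus strand): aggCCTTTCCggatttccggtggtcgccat
The responses of genes with and without a run are given as a description, without a test. With antigen in low arginine, 12 of 24 genes with a run were called and their median log2 change was 0.31, and 8 of 25 without a run were called with a median of 0.31. In low leucine 13 of 24 and 14 of 25 were called, with medians of 0.33 and 0.50, and in low lysine 8 of 24 and 7 of 25, with medians of 0.16 and 0.15. With antigen at 72 h, the medians were 0.08 and 0.08, with 6 of 25 and 10 of 28 called.

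Ribosomal protein probe sets were among the brightest on both array types, which bears on how far a change can be seen. Values are log2 intensities. At 72 h, 62 of the 67 genes were among the 100 brightest genes, 53 lay on average within 1 log2 unit of the array's highest gene, and the median level was 13.17. At 48 h, 30 of 64 were among the 100 brightest and 17 lay within 1 unit of the top, with a median level of 10.67 and a highest level of 12.74 for Rplp1, a protein of the large subunit's stalk. Brightness depends on the probes as well as on the transcript, so levels are not compared between genes as abundance. Near the top of the scale at 72 h the ribosomal protein genes also varied little: the 62 genes at 12 or more had a median SD over the 9 arrays of 0.088, against 0.220 for the 71 other genes that bright. At 48 h the 17 genes at 12 or more had a median SD of 0.156, against 0.175 for 25 others. The files carry no scanner flag for saturation, so whether small changes at 72 h were compressed was not tested.

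**Figure D1:**
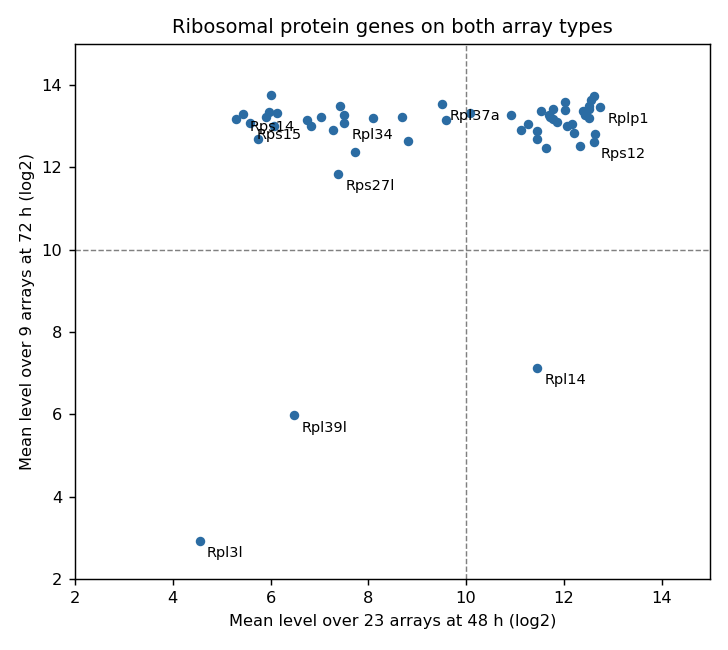
Mean log2 level at 48 h (x axis, 23 arrays) against 72 h (y axis, 9 arrays) of the 55 ribosomal protein genes on both array types, a point per gene, with dashed lines at 10. Of these, 29 lie above 10 on both types, 23 only at 72 h, Rpl14 only at 48 h and 2 on neither.

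The same gene could be bright on one array type and dim on the other, where a different probe set stood for it. Rpl14, a large subunit protein, had a level of 11.46 at 48 h and 7.13 at 72 h. Rps14, a small subunit protein, had 5.43 at 48 h and 13.29 at 72 h. At 48 h, 57 further probe sets name a ribosomal protein gene together with another gene, often a pseudogene copy, and were left out of the gene values. At 72 h there were 15 such probe sets. For 12 symbols that fit the rule at 48 h, and 2 at 72 h, shared probe sets were the only ones, so they had no gene value there.

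Antigen raised part of the set at 48 h in every low medium and lowered almost none. Of 64 genes, 26 rose and 0 fell in low arginine, 36 rose and 0 fell in low leucine, and 21 rose and 1 fell in low lysine (limma, adjusted p below 0.05 over all genes). Of all genes, 29.4%, 41.3% and 31% were called, and 17.2%, 21.8% and 18.4% rose. The median log2 change of the set was 0.32, 0.42 and 0.19, against -0.12, -0.13 and -0.09 over all genes. Many other genes above the dimmest levels rose too, however. Among the 6933 other genes at or above the set's lower quartile, a level of 6.73, 55.1%, 67.2% and 60.2% were called, with medians of 0.39, 0.47 and 0.40. Only 309 of them reach a level of 10, whereas the set's median level was 10.67, so they match the set poorly in level. The share called in the set, in either direction, was 40.6%, 56.2% and 34.4%. In each medium this lay above the share of all genes and below that of the 6933. Counting rises alone, the set had 40.6%, 56.2% and 32.8%, against 45.5%, 54.5% and 48.9% of the 6933. At a level of 10 or more, 55.9%, 64.7% and 38.2% of 34 genes of the set rose, against 47.6%, 52.1% and 51.5% of 309 others. These differences were not tested. In a fit of all 41345 probe sets, 46, 60 and 32 of the 104 that name 1 ribosomal protein gene alone rose and 2, 2 and 1 fell. Their medians were 0.37, 0.46 and 0.25. Of the 57 shared ones, left out of the counts above, 10, 19 and 9 rose and 0, 2 and 2 fell, with medians of 0.14, 0.20 and 0.16. Of all 41345, 4811, 6394 and 5196 rose and 4021, 7084 and 4570 fell. The gap between single and shared probe sets was not tested. Arrays with antigen lay wholly above those without for 46, 43 and 25 of the 64 genes, against 25.6%, 24.5% and 20.1% of all genes. The set's median was positive in every run of submitter numbers that held both groups, at 0.24 and 0.38 in low arginine, 0.61, 0.34 and 0.30 in low leucine, and 0.07, 0.35 and 0.23 in low lysine.

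The rises were uneven and lay in both subunits. Of 24 small subunit genes 9, 14 and 6 rose, and of 40 large subunit genes 17, 22 and 15, in low arginine, leucine and lysine. A group of 17 genes rose in all 3 media: Rps7, Rps12, Rps20, Rps26, Rps27l and Rpsa of the small subunit, and Rpl6l, Rpl7, Rpl7a, Rpl10a, Rpl15, Rpl28, Rpl29, Rpl34, Rpl35, Rpl37a and Rplp0 of the large subunit. Another 25 rose in none, among them Rpl5 and Rpl11, which enter the large subunit with 5S RNA, and Rpl22, Rpl38, Rpl41, Rplp1 and Rplp2. The mean was lower with antigen in all 3 media for Rpl4, Rpl11, Rpl38, Rpl39l and Rps28.

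Rps27l, a paralog of Rps27 known as a p53 target, kept its call in all alternative fits, 13 in low arginine and 14 in each other medium. Its levels without antigen were 6.42 and 6.49 in low arginine, 5.91, 6.30 and 6.63 in low leucine, and 6.24, 6.22 and 6.17 in low lysine. With antigen they were 8.06, 7.85 and 8.20 in low arginine, 8.10, 7.98 and 8.29 in low leucine, and 7.52, 7.59 and 8.15 in low lysine. Every array with antigen lay above every array without it. The log2 changes were 1.59 ± 0.20 (SE, n = 3 and 2; limma adjusted p = 1.53e-06), 1.85 ± 0.18 (n = 3 and 3; adjusted p = 2.08e-08) and 1.54 ± 0.18 (n = 3 and 3; adjusted p = 3.8e-07). Rps27 itself, with group means of 6.13 to 7.35 and single arrays at 5.39 to 7.66, was called in none of the media. In low leucine Rps27l rose by 1.85 beside Cdkn1a, another p53 target and an inhibitor of the cell cycle, which rose by 3.40 (limma adjusted p = 2.87e-09), and Ccng1, which rose by 1.42. Of the 10 genes of that p53 list, Rps27l included, 6 rose in low leucine and 1 fell. The falling gene, Sesn1, decreased by 2.01 on the log2 scale. These genes are given for low leucine only. The list's mean level without antigen was 7.47, 7.49 and 7.43 in low arginine, leucine and lysine, and with it 8.33, 8.35 and 7.98. With antigen at 72 h, 2 of the list's 10 genes rose, Rps27l among them, and 1 fell. On pretreated macrophages 1 of 10 rose and 0 fell at 48 h, where Rps27l was not called. At 72 h 0 rose and 1 fell there, Rps27l itself.

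Rpl34, a large subunit protein, had the largest changes but the widest spread. Without antigen its levels were 6.31 and 6.75 in low arginine, 5.70, 6.22 and 6.38 in low leucine, and 6.82, 5.67 and 4.99 in low lysine. With antigen they were 8.60, 8.64 and 8.59, then 8.42, 8.29 and 8.22, then 8.01, 7.31 and 8.90. The groups did not overlap in any medium, and the low lysine arrays were the most scattered. The changes were 2.08 ± 0.48 (n = 3 and 2; limma adjusted p = 0.00211), 2.21 ± 0.43 (adjusted p = 0.000266) and 2.25 ± 0.43 (adjusted p = 0.000297; n = 3 and 3 for both). This probe set averages 7.50, whereas a probe set that names Rpl34 and its pseudogene Rpl34-ps1 averages 12.59 and rose by only 0.54 in low leucine.

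Rps26, a small subunit protein near the mRNA exit channel, rose in each medium. Its levels without antigen were 10.84 and 10.79 in low arginine, 10.66, 10.75 and 10.75 in low leucine, and 10.68, 10.76 and 10.54 in low lysine. With antigen they were 11.62, 11.63 and 11.47, then 11.66, 11.59 and 11.68, then 11.36, 11.60 and 11.49. Arrays with and without antigen stood apart in each medium, by 0.76 ± 0.09, 0.92 ± 0.08 and 0.82 ± 0.08 (limma adjusted p = 9.25e-07, 7.07e-09 and 4.85e-08; n = 3 and 2, then 3 and 3).

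Rplp0, the acidic stalk protein often used as a reference gene, also rose. Its levels without antigen were 9.49 and 9.42 in low arginine, 8.45, 9.70 and 9.51 in low leucine, and 9.63, 9.01 and 9.35 in low lysine. With antigen they were 10.64, 10.93 and 10.91, then 10.77, 10.49 and 10.88, then 10.46, 10.25 and 10.38. The changes were 1.37 ± 0.40 (limma adjusted p = 0.013; n = 3 and 2), 1.49 ± 0.36 (adjusted p = 0.00202) and 1.04 ± 0.36 (adjusted p = 0.0315; n = 3 and 3 for both). After quantile normalization the calls in low arginine and low lysine were lost. The low arginine call was also lost without either array of cells without antigen, and the low lysine call without replicate 1 or 3 with antigen or replicate 2 or 3 without it.

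The other large rises were smaller or held in fewer media. Rpl37a, a zinc-binding large subunit protein, rose by 0.61, 1.22 and 0.81, but its probe set shared with Mir682, at a level of 12.72, moved by 0.02 in low leucine. Rps15 and Rpl17 rose by 1.29 and 1.02 in low leucine, Rpl26 by 1.12 in low lysine and Rpl6l by 1.11 in low arginine. Rps6, the small subunit protein phosphorylated by S6 kinase, rose in low arginine by 0.23 ± 0.07 (n = 3 and 2; limma adjusted p = 0.0187), a call lost in 3 of 13 alternative fits, and changed by 0.13 and 0.10 in low leucine and low lysine, which were not called. Its effect was not shown to differ between the media (F test in limma, adjusted p = 0.860). The only fall was Rps28 in low lysine, by 0.23 on the log2 scale, a call lost in 7 of 14 alternatives.

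**Figure D2:**
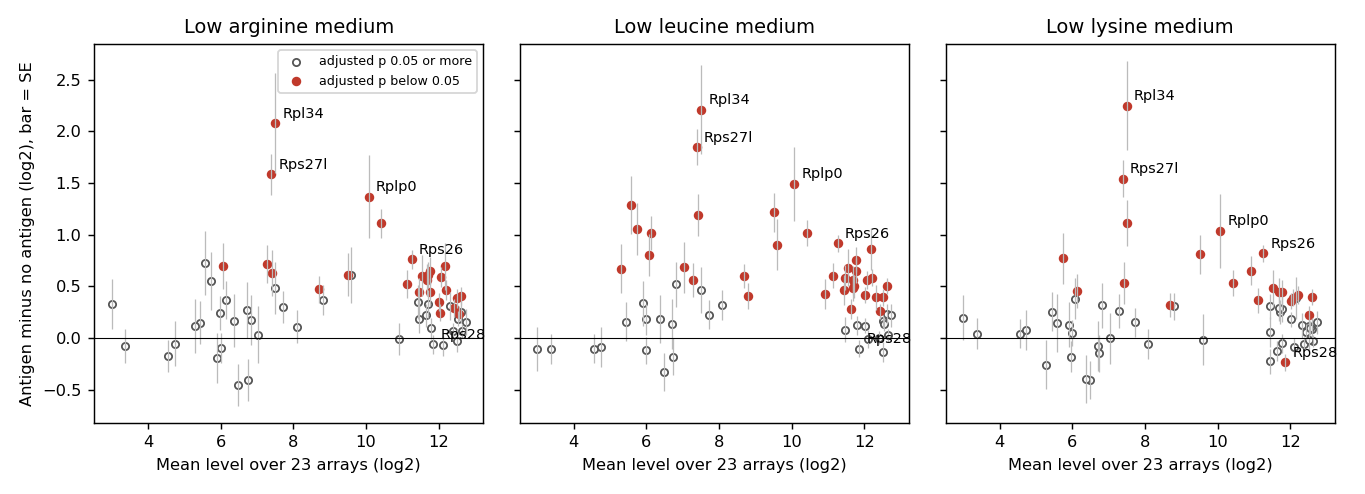
Log2 change with antigen (y axis, antigen minus no antigen, bar = SE) against mean log2 level over the 23 arrays at 48 h (x axis) of the 64 genes, in a panel for each low medium, filled where the adjusted p was below 0.05. Rpl34 and Rps27l stand highest at mid level, while the brightest genes lie between about zero and the level of Rps26.

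Whether the size of the antigen effect differed between the 3 media was tested directly. In limma's moderated F test 0 of the 64 genes passed (7 had an unadjusted p below 0.05), against 0.149% of all genes, and the lowest adjusted p was 0.348, for Rpl6l. No alternative fit gave a call here. The fewer calls in low lysine were therefore not shown to be a smaller effect. The low lysine arrays with antigen were uneven, with mean levels of the set of 9.43, 9.21 and 9.56. Without the lowest of these (replicate 2) 28 genes were called, and without the highest (replicate 3) 11. Leaving out replicate 1 gave 14, and leaving out low lysine without antigen replicate 3 gave 12. In low arginine the count was 13 without no antigen replicate 1. Quantile normalization gave 19 higher and 3 lower in low arginine, 30 and 2 in low leucine, and 13 and 5 in low lysine.

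Other cells moved with antigen at 48 h. The mean level of 19 macrophage markers was 7.29 to 7.40 in the groups without antigen and 6.50 to 6.66 with it, and that of 13 T cell identity genes was 9.90 to 9.93 without and 10.26 to 10.43 with it. Of the macrophage markers 0 rose and 9, 14 and 10 fell in low arginine, leucine and lysine. Their part in the ribosomal protein changes was not tested, and in bulk samples fewer cells of a type and less RNA per cell cannot be told apart.

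Most genes that build the ribosome rose too, with larger median changes. Of 28 ribosome biogenesis genes 25, 28 and 25 rose in low arginine, leucine and lysine, with medians of 0.97, 1.31 and 1.21. Examples in low leucine were Noc4l, at 2.23, and Nop58, a core protein of box C/D snoRNPs, at 1.96. Of 71 mitochondrial ribosomal protein genes 58, 66 and 63 rose, with medians of 0.97, 1.29 and 1.05. Of 14 genes of a list of ribosomal protein chaperones and ribosome assembly factors 8, 13 and 13 rose, led in low leucine by Ltv1 at 1.83 and Nob1 at 1.79. Of 21 translation factors and other genes with TOP messages 16, 18 and 17 rose, and 0, 2 and 1 fell. The difference between these lists and the ribosomal proteins was not tested.

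At 72 h in full medium, antigen raised 19 of 67 ribosomal protein genes and lowered 2, against 38.2% of all genes called (20.7% higher and 17.4% lower). The median change was 0.07, and 0.02 over all genes. Among the 63 genes at a level of 10 or more, 16 rose and 2 fell, none by more than 0.36. Among 782 other genes at 10 or more 360 rose and 122 fell, but 711 of these lay at 10 to 12, against 1 of the set. Of 13 other genes at least as bright as the set's lower quartile, 2 rose and 0 fell, with a median of 0.08. The direction rests on the scaling: with arrays centred on their medians, which shifts the median of all genes from 0.02 to 0.53, 67 of 67 were called higher, and 86.0% of all calls were higher against 54.3%. Without the intensity trend 7 were called. Within the 2 runs of submitter numbers the set's median was 0.11 and 0.09. The count was 12 without no antigen replicate 1 and 13 without antigen replicate 1.

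The largest 72 h changes were in dim probe sets. Rpl39l, a paralog of Rpl39 best known from male germ cells, had levels of 4.43, 5.02 and 4.56 without antigen, 6.45, 7.79 and 6.84 with it, and 5.84 to 6.81 with antigen on pretreated macrophages. All arrays with antigen lay above those without, and the rise was 2.36 ± 0.36 (n = 3 and 3; limma adjusted p = 0.000328). Rpl39 lay near the top of the scale, at 13.34 to 13.36 without antigen and 13.26 to 13.34 with it, and its change turned to 0.46 with centred arrays. Rpl14 had levels of 6.20, 6.58 and 6.68 without and 7.82, 8.07 and 7.82 with antigen, a rise of 1.42 ± 0.29 (n = 3 and 3; limma adjusted p = 0.00231).

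Among bright genes, Rps27l again rose with antigen, from 11.85, 11.75 and 11.84 to 12.02, 12.25 and 12.24, by 0.36 ± 0.09 (n = 3 and 3; limma adjusted p = 0.00954). Its 3 probe sets rose by 0.34 to 0.49. Rpl7a and Rpl22, the latter required for T cell development, rose by 0.30 and 0.29. Rpl11, a large subunit protein that binds Mdm2 when ribosome assembly is disturbed, rose by 0.24 ± 0.06 (n = 3 and 3; limma adjusted p = 0.00777). Its levels were 12.98, 13.12 and 13.14 without antigen and 13.35, 13.31 and 13.30 with it.

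The 72 h falls were in Rps28, a small subunit protein, and Rplp1. Rps28 had levels of 13.19, 13.19 and 13.27 without antigen and 13.06, 12.99 and 13.03 with it, and Rplp1 had 13.52, 13.53 and 13.53 without and 13.36, 13.43 and 13.38 with it. Neither gene's groups overlapped, and the values dropped by 0.19 and 0.14 on the log2 scale. Both changes turned to 0.32 and 0.37 when arrays were centred. The Rps28 call was lost in 3 of 14 alternatives and the Rplp1 call in 9 of 14, 5 of them fits that left out 1 array.

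Of the building genes, 25 of 29 for ribosome biogenesis (median 1.00) and 62 of 73 for mitochondrial ribosomal proteins (median 0.82) rose at 72 h, and 10 of 20 TOP message genes rose and 1 fell. The 72 h arrays without antigen also held far higher levels of markers of other cells: 18 mesothelial and stromal markers averaged 9.76 against 4.34 with antigen, and 18 macrophage markers 6.62 against 4.31. All 18 mesothelial and stromal markers and 12 of 18 macrophage markers fell with antigen. Of 14 T cell identity genes, which averaged 9.24 without antigen and 10.19 with it, 10 rose and 0 fell. The part of these shifts in cell markers in the 72 h changes was not tested.

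Cytokine pretreatment of the macrophages moved few ribosomal protein genes. At 72 h 3 of 67 rose and 4 fell, against 9.69% of all genes (3.78% and 5.91%), with a median of 0.05. Same-numbered arrays varied together here, with correlations of 0.170 to 0.260, though the labels do not state a pairing. With the replicate as a block 2 rose and 6 fell, and the p-values given are from the fit without it. At 48 h 0 of 64 rose and 4 fell, against 8.64% (2.71% and 5.93%), with a median of -0.01. Within the runs of submitter numbers that held both groups, the set's median was 0.15, -0.15 and 0.06, so its sign differed between runs. Over all genes it was 0.015, -0.003 and -0.025. Same-numbered replicates 1 and 2 came from different runs at 48 h, so a replicate block does not follow the runs there. The 4 at 48 h were Rps15, Rpl17, Rps14 and Rpl37a, which fell by 0.88, 0.85, 0.69 and 0.68 on the log2 scale. Rps14 had levels of 6.03, 5.90 and 5.94 on untreated and 5.22, 5.43 and 5.15 on pretreated macrophages, and Rps15, which lies by the decoding site, had 6.15, 6.55 and 6.29 against 5.38, 5.32 and 5.63. Rpl37a had 10.27, 10.27 and 10.28 against 9.44, 9.55 and 9.80. None of these groups overlapped. The Rpl17 call held in all 14 alternatives, while the calls of Rps15, Rps14 and Rpl37a were lost in 10 of 13, 6 of 13 and 5 of 14. All 4 genes lie below 10, and 0 of the 34 brighter genes were called. The 48 h count was 1 without any one of the antigen arrays on untreated macrophages and 2 without pretreated replicate 2 or 3, and a fit of only the 2 groups called 1 rise and 6 falls. On pretreated macrophages 8 of 19 macrophage markers rose at 48 h, and 22 of 23 mitosis genes fell. At 72 h 15 of 23 mitosis genes fell and 1 of 18 macrophage markers rose, and the mesothelial and stromal list averaged 4.52 to 6.18 on the pretreated arrays against 4.23 to 4.55 on the untreated ones. Their part in the changes was not tested.

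Rps27l fell with pretreatment at 72 h and kept its call in all 14 alternative fits. Its levels were 12.02, 12.25 and 12.24 on untreated and 11.60, 11.41 and 11.68 on pretreated macrophages, with no overlap, a change of -0.61 ± 0.09 (n = 3 and 3; limma adjusted p = 0.00371). The pretreated arrays also lay below the 3 without antigen, which were at 11.75 to 11.85. At 48 h it changed by -0.54 ± 0.18 (n = 3 and 3; limma adjusted p = 0.0589), which was not called, although its arrays at 7.84, 7.80 and 7.45 all lay below those at 8.23, 8.40 and 8.09. Rpl37a, at 13.61, 13.60 and 13.57 on untreated and 13.40, 13.18 and 13.36 on pretreated macrophages, fell by 0.28, Rpl11 by 0.24 and Rpl41, a tiny basic protein of the large subunit, by 0.22 on the log2 scale. Rpl12, Rpl34 and Rps12 rose by 0.29, 0.26 and 0.25. Of 14 alternatives, the calls were lost in 7 for Rpl37a, 8 for Rpl11, 7 for Rpl41, 6 for Rpl12, 4 for Rpl34 and 10 for Rps12. Rpl11 and Rpl41 turned to 0.02 and 0.05 when all probe sets of a gene were averaged. The count fell to 1 with arrays centred, without the intensity trend, or without pretreated replicate 3, to 2 without antigen replicate 3, and to 4 without replicate 1 of either group.

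**Figure D3:**
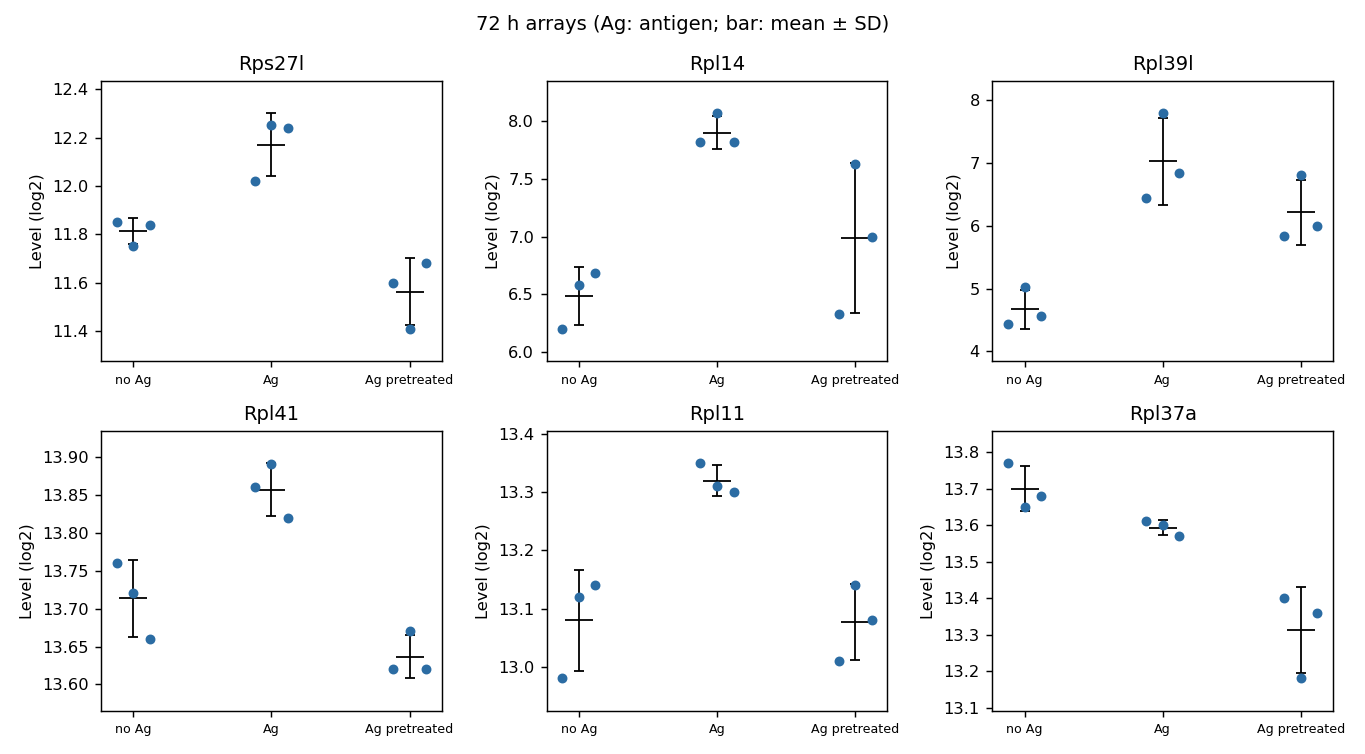
Log2 level on each 72 h array (points) with group mean ± SD for 6 ribosomal protein genes in unstimulated cells, stimulated cells and stimulated cells on cytokine-pretreated macrophages, each panel with its own y axis. Rps27l rises from 11.75 to 11.85 without antigen to 12.02 to 12.25 with it and lies at 11.41 to 11.68 after pretreatment.

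Low amino acids left the ribosomal protein genes of stimulated cells with few calls. Against full medium, 0 rose and 3 fell in low arginine (4.67% of all genes were called, 1.51% higher and 3.17% lower), 0 rose and 0 fell in low leucine (2.72%, 1.15% higher and 1.56% lower, with 11 of the set at an unadjusted p below 0.05 in limma), and 0 rose and 4 fell in low lysine (8.73%, 2.49% higher and 6.24% lower). The medians were 0.09, 0.10 and -0.09. Full-medium and low-medium arrays come from different runs of submitter numbers, so medium and run cannot be told apart.

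Rpl17, a large subunit protein, fell in low arginine, low lysine and on pretreated macrophages, by 0.96, 0.83 and 0.85 on the log2 scale. Its levels were 6.76, 7.07 and 7.20 in full medium, 6.40, 5.90 and 5.86 in low arginine, 6.71, 6.39 and 6.62 in low leucine and 6.28, 5.94 and 6.31 in low lysine. None of the 3 low media overlapped full medium, and low arginine and low lysine were called (limma adjusted p = 0.00108 and 0.00336; n = 3 and 3). In low arginine Rpl37a also fell, by 0.66 on the log2 scale, from 10.27, 10.27 and 10.28 to 9.52, 9.74 and 9.59, a call lost in 8 of 14 alternatives. Every comparison with full medium, pretreatment at 48 h included, uses the same 3 arrays of stimulated cells in full medium. The falls of Rpl17, Rpl37a and Rps15 that recur across these comparisons are therefore not separate observations.

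The other falls in low lysine were Rps15, Rpl27a and Rplp2, a stalk protein, by 1.04, 1.02 and 0.80 on the log2 scale. Rpl27a had levels of 6.62, 6.91 and 6.84 in full medium and 5.56, 5.56 and 6.20 in low lysine, and Rplp2 had 6.46, 6.34 and 6.50 against 5.94, 5.15 and 5.83. Rps15 was widely spread in low lysine, at 5.31, 4.45 and 6.10, and still lay below its 6.15, 6.55 and 6.29 in full medium. The Rpl27a call held in all 14 alternatives, and the calls of Rps15 and Rplp2 were lost in 5 of 13 and 6 of 14. All of these probe sets are dim, and Rpl27a's bright probe set, shared with Gm13981 at 12.08, changed by 0.00 in low lysine.

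Rpl3, a core large subunit protein that reaches near the peptidyl transferase centre, was the only gene at a level of 10 or more called against full medium. Its levels were 11.21, 11.04 and 11.36 in full medium and 10.43, 10.73 and 10.75 in low arginine, a change of -0.57 ± 0.14 (n = 3 and 3; limma adjusted p = 0.0205) without overlap. Low lysine stood at 11.33, 10.94 and 11.34. Rpl3 has several probe sets at 48 h, and their mean changed by 0.18 instead, so the call rests on the probe set chosen.

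Bright and dim genes of the set differed in their changes. In low arginine 33 of the 34 genes at 10 or more had a positive change (median 0.15), and the 30 dimmer ones had a median of -0.16. In low leucine the medians were 0.16 and -0.10, and in low lysine 0.00 and -0.40. Across the 64 genes the change and the level had a Spearman rho of 0.55, 0.50 and 0.46, a description in which all genes share the same arrays. The fit of only the 2 groups called 13 higher and 7 lower in low arginine and 14 higher and 1 lower in low leucine, against 0 and 3, and 0 and 0, in the shared fit. The share of all genes called in these 2 fits is not given here, so the added calls are not read as particular to the set. The low arginine count was 1 without antigen replicate 1 or 3 or low arginine replicate 1, and the low lysine count was 2 without antigen replicate 2 or 3 or low lysine replicate 2. In low lysine all 23 mitosis genes fell against full medium. Of 9 B cell markers 5 rose and 0 fell there, with list means over the arrays of 5.84 to 6.78 against 5.54 to 5.58 in full medium. The part of these genes in the low lysine falls was not tested.

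**Figure D4:**
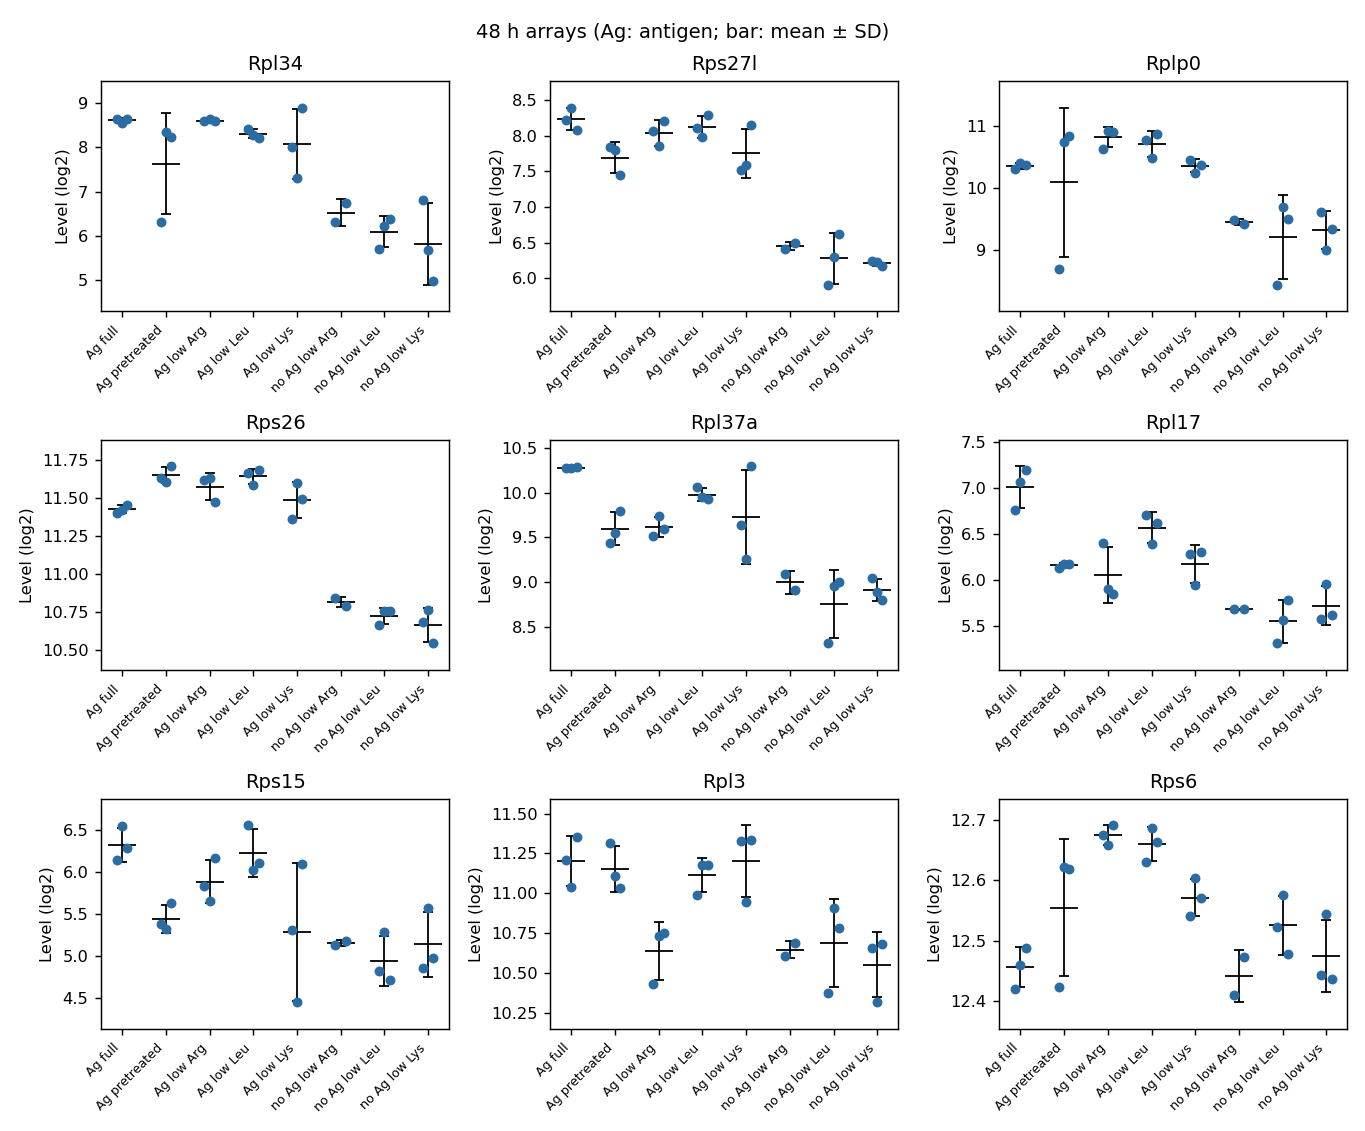
Log2 level on each 48 h array (points) with group mean ± SD for 9 ribosomal protein genes across the 8 groups, each panel with its own y axis. Rps26, Rps27l and Rpl34 lie lower in every group without antigen, and Rpl17 is highest in full medium with antigen.

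Between the low media few of the genes were called. With antigen, 0 of 64 differed between low arginine and low leucine (0.712% of all genes; 3 of the set at an unadjusted p below 0.05 in limma), also with the replicate as a block, which the arrays support there. Rpl3 was the single gene called between low arginine and low lysine, lower in low arginine by 0.57 on the log2 scale (3.22% of all genes, 2.65% higher and 0.577% lower; limma adjusted p = 0.0262; n = 3 and 3), and 0 differed between low leucine and low lysine (1.88%; 22 of the set at an unadjusted p below 0.05 in limma). The Rpl3 call was lost in 8 of 14 alternatives, and its value turned to 0.015 when its probe sets were averaged. Between low leucine and low lysine the median was 0.18 and 58 of 64 genes were higher in low leucine. Without low lysine replicate 3, 6 genes were called higher in low leucine, and 5 higher in low arginine. Against full medium, 11 fell in low lysine without that array.

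A larger share of the other ribosome genes fell in low arginine, low lysine and on pretreated macrophages, a difference that was not tested. Of 71 mitochondrial ribosomal protein genes at 48 h, 8 fell in low arginine, 0 in low leucine, 23 in low lysine and 38 on pretreated macrophages, and 0 rose in each. Of 28 biogenesis genes 7, 0, 4 and 11 fell. Of all genes 3.17%, 1.56%, 6.24% and 5.93% fell. Nop2, a nucleolar methyltransferase of the large subunit RNA, fell by 0.72, 0.56 and 0.91 on the log2 scale in low arginine, low lysine and on pretreated macrophages. At 72 h pretreatment lowered 24 of 73 mitochondrial ribosomal protein genes and raised 1.

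**Figure D5:**
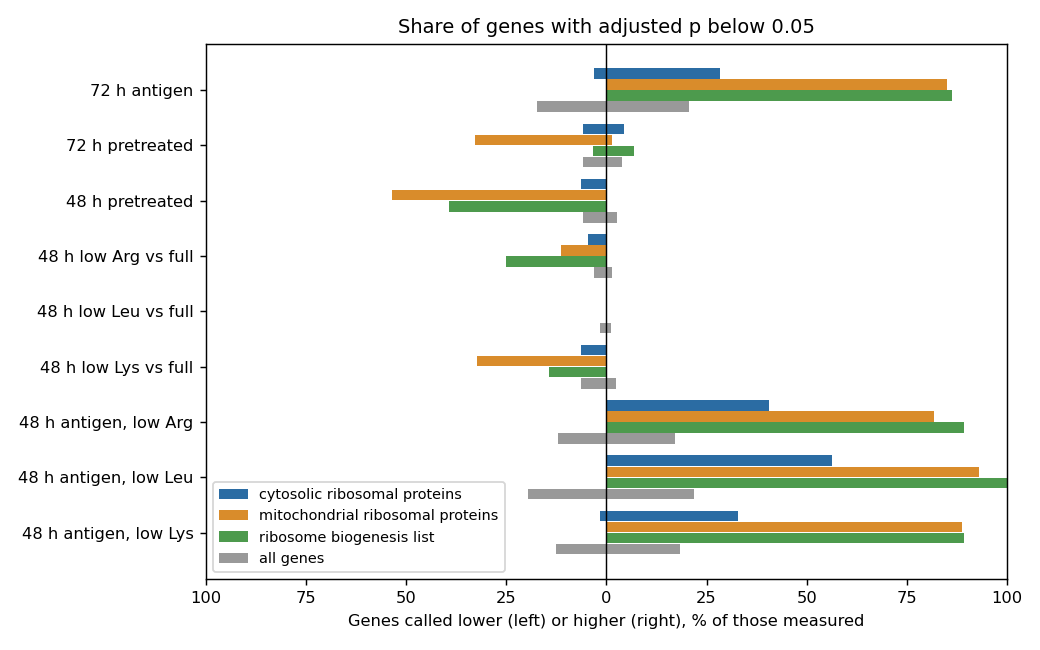
Percent of genes called lower (left of 0) or higher (right of 0) at an adjusted p below 0.05 in 9 comparisons, for the cytosolic ribosomal proteins, 71 to 73 mitochondrial ribosomal proteins, 28 to 29 biogenesis genes and all genes. Antigen bars of the cytosolic set reach 26, 36 and 21 of 64 genes at 48 h, and both other ribosome lists reach further.

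Apart from Rps27l, Rpl6l and Rpl39l, paralogs named with a final l were dim and not called. Rpl3l, best known from striated muscle, had group means of 2.89 to 2.95 at 72 h and 4.47 to 4.71 at 48 h. Rpl10l, another testis paralog, had group means of 3.26 to 3.46 and Rps4l of 4.49 to 5.04 at 48 h, and none of these 3 was called in any comparison. Rpl38, a large subunit protein tied to translation of Hox messages, stayed between 12.04 and 12.21 in group means at 48 h.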

How the data were processed

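The authors deposited RMA log2 intensities, for which the submitters' processing notes name Affymetrix Expression Console 1.1. Which arrays were normalized together is not given in the sources used here. Probe sets were named through the platform annotation tables. A gene was represented by the probe set naming it alone with the highest mean, so probe sets shared with pseudogenes were left out. All groups of an array type were fitted together with limma 3.58.1 in R 4.3.3 (lmFit, eBayes with an intensity trend), two-sided, with Benjamini-Hochberg adjustment over all genes, and the array types were never fitted together. There were 12 comparisons and an F test of the antigen effect over the low media. Fits were tested on simulated data.

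Members, lists and comparisons were chosen with earlier results of these data known. Named genes were up to 5 called rises and falls per comparison, fixed members such as paralogs, and up to 3 genes of each list, with further examples chosen after their values were seen. Deviations of same-numbered arrays correlated at 0.170 to 0.260 for pretreatment at 72 h and at 0.294 to 0.390 for low arginine against low leucine. The main counts and p-values there still come from fits without pairs, and the replicate block was an alternative fit. Sequences are from RefSeq, GRCm38.p6. Alternatives were another scaling, filter, probe set rule, variance model, block or set of arrays, and leaving out each array. The number of arrays limits the precision.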

Additional observations from a re-analysis of the deposited data

Results flagged for a closer look

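For 6 genes every array moved one way under a contrast at 48 h and the opposite way at 72 h. The share of all genes that did so was not counted, and several of these changes were not called. The differences were not tested, and the times also differ in array type, probe set and, for antigen, medium. With pretreatment, Rpl34 changed by -0.98 at 48 h, which was not called, and by 0.26 at 72 h. Rplp2 changed by -0.50 and 0.19, neither of them called (limma adjusted p = 0.182 and 0.138). With antigen, Rpl37a changed by 0.61, 1.22 and 0.81 in low arginine, leucine and lysine and by -0.11 at 72 h, which was not called. Rpl39l changed by -0.33 in low leucine and -0.40 in low lysine, neither of them called (limma adjusted p = 0.147 and 0.0967), and by 2.36 at 72 h. Rplp1 changed by 0.16 in low arginine, which was not called, and by -0.14 at 72 h. Rps24 changed by 0.093 in low arginine and 0.12 in low leucine, and by -0.08 at 72 h, none of them called. The 72 h directions of Rpl37a, Rplp1 and Rps24 rest on the scaling: with arrays centred on their medians, 67 of 67 ribosomal protein genes were called higher with antigen at 72 h, these 3 included, so the opposite direction was not seen.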

How the results depend on the processing

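Leaving out single arrays gave 12 to 23 calls for antigen at 72 h, 1 to 8 and 1 to 4 for pretreatment at 72 h and 48 h, 1 to 2, 0 and 2 to 11 for low arginine, leucine and lysine against full medium, 13 to 25, 26 to 39 and 11 to 28 for antigen in those media, and 0, 0 to 5 and 0 to 6 for low arginine against leucine, arginine against lysine and leucine against lysine. Centred arrays gave 67 (antigen, 72 h), 1 (pretreatment, 72 h) and 0 (arginine against lysine), and turned Rps28, Rplp1, Rpl39, Rplp2 and Rps29 at 72 h to 0.32, 0.37, 0.46, 0.31 and 0.41. Without the intensity trend, counts were 7 for antigen and 1 for pretreatment at 72 h. Averaging probe sets gave 3 for pretreatment at 72 h and 0 for arginine against lysine, and turned Rpl11 and Rpl41 to 0.018 and 0.048, and Rpl3 to 0.18 (low arginine against full) and 0.015 (arginine against lysine). Fits of only the groups compared gave 2 and 7 for pretreatment at 72 h and 48 h, 20, 15 and 2 for low arginine, leucine and lysine against full medium, 2 for arginine against leucine and 0 for arginine against lysine. The shares of all genes called in those fits are not given here. Quantile normalization gave 1 for low leucine against full medium and 2 for arginine against lysine, and the filter on dim genes 5 for the latter. The replicate block gave 8 for pretreatment at 72 h, 3 for arginine against lysine and 2 for leucine against lysine. The causes were not tested. Of the 205 alternative counts, 158 stayed within 1.5 times the main count.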
